A study of Mus musculus with 20 samples.

Results

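Chemokines are small secreted proteins that guide the movement of leukocytes, and the mouse lung genes described here are those that encode chemokines or their receptors. Members were chosen by gene symbol: protein-coding genes named Ccl, Cxcl, Ccr, Cxcr or Ackr with a number and an optional letter, together with Cx3cl1, Cx3cr1 and Xcl1. The rule found 58 members among 54532 gene IDs, and it used no measured value. Of these, 40 reached 1 FPKM (fragments per kilobase of transcript, scaled to the size of the library) in at least 5 of 20 libraries and were tested, and 18 did not.

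RNA was sequenced from lung tissue of wild-type mice in 4 groups of 5 libraries. The SMD group received Shegan-Mahuang Decoction, a multi-herb preparation of traditional Chinese medicine. The prednisone group received prednisone, a synthetic glucocorticoid. The model group is labelled as the model, in a study of asthma by its title, and the control group only as control; no other agent is named for either. The labels do not state how asthma was induced, whether the SMD and prednisone groups were induced alike, the doses, the time of sampling, or the strain, age and sex of the mice. The study assigned 15 mice to each group, and the labels do not say whether each library is 1 animal, so p-values measure the spread between these libraries, which may be technical.

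A chemokine binds a receptor of the G protein-coupled family on a leukocyte, and the cell moves along the gradient. In allergic airways, Ccl17 and Ccl22 bind Ccr4 and draw T helper type 2 cells and dendritic cells, the eotaxins bind Ccr3 and draw eosinophils, and Cxcl1, Cxcl2 and Cxcl3 bind Cxcr2 and draw neutrophils. The atypical receptors, named Ackr, bind chemokines without G protein signalling, and several of them remove chemokines and so shape the gradients.

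Promoter windows are shown for 5 chemokines whose values are described at length, each holding at least 1 of the motifs searched. These 5 are a selection: Ccl9, Ccl20 and Cxcl14 also hold a motif and have values given, and their windows are not shown. Windows run from 250 bases before to 50 bases after the start of the gene, and were found for 44 of the 58 members (51 promoters, RefSeq, build GRCm38.p6). On the gene's own strand they are Ccl17 at chr8:94810203-94810502 (+), Cxcl1 at chr5:90890995-90891294 (+), Cxcl2 at chr5:90903649-90903948 (+), Cxcl3 at chr5:90785851-90786150 (+) and Cxcl10 at chr5:92348840-92349139 (-). Capitals mark motif matches. In Ccl17 these are the STAT6 type (TTC, any 4 bases, GAA) and the gamma-activated site type (TTC, any 3 bases, GAA). In the others they are NF-kB, and in Cxcl10 also the interferon response element type (GAAA, any 2 bases, GAAA).
Ccl17: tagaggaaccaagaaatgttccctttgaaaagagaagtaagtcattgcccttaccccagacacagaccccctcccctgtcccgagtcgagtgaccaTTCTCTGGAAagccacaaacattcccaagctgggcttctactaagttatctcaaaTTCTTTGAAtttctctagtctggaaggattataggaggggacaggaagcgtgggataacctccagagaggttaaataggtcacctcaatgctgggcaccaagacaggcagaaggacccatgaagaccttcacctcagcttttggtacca
Cxcl1: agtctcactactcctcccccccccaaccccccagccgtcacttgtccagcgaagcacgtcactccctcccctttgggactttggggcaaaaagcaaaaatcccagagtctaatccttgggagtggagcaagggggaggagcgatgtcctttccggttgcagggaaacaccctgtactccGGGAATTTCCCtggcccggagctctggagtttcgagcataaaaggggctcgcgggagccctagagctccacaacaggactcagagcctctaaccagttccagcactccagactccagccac
Cxcl2: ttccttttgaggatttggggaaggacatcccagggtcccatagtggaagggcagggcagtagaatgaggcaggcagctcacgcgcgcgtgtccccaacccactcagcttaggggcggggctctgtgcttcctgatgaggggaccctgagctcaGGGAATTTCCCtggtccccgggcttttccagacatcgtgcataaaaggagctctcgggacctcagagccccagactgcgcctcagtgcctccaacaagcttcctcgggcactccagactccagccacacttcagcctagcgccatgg
Cxcl3: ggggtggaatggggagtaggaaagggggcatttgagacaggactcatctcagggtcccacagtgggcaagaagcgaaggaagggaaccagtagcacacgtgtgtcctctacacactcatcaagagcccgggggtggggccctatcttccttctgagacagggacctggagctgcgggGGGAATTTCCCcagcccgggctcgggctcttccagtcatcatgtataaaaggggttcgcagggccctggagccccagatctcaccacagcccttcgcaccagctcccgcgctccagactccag
Cxcl10: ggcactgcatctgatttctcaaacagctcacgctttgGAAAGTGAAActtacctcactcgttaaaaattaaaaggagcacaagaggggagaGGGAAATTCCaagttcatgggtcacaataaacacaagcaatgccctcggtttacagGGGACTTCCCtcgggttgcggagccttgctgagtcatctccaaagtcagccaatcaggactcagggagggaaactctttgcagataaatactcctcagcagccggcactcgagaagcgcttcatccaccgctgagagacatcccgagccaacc

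In the Ccl17 window the STAT6 type motif began 154 bases before the start and the gamma-activated site type 99 bases before it. The STAT6 type occurred in 6.95% of all 32851 promoters of this length and in 1 of the 51 member promoters, and the gamma-activated site type in 8.3% and in 3 (Ccl17, Ccr6 and Cxcl14). The NF-kB motif began 71, 97 and 73 bases before the start of Cxcl1, Cxcl2 and Cxcl3, as the same run GGGAATTTCCC in all 3, which matched on both strands with overlap. In Cxcl10 it began 159 and 103 bases before the start, as GGGAAATTCC and GGGACTTCCC. It occurred in 4.51% of all promoters and in 10 member promoters, those of Ackr2, Ccl20, Ccl27a, Ccl9, Ccr3, Ccr6, Cxcl1, Cxcl10, Cxcl2 and Cxcl3. The interferon response element type began 213 bases before the start of Cxcl10, and occurred in 3.44% of all promoters and in 3 member promoters (Ccl19, Cxcl10 and Cxcl14). The glucocorticoid response element type (GNACA, any 3 bases, TGTNC) occurred in 0.475% of all promoters and in 0 member promoters. Both strands were searched, and a match describes the letters only.

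The family was dominated by few genes. Cxcl15, a neutrophil-attracting chemokine of mouse lung epithelium, averaged 256 FPKM over all libraries and made up 32.5% to 51.3% of the summed FPKM of the 58 members. Ccl6, a macrophage chemokine of rodents that binds Ccr1, averaged 114 FPKM, and together the pair made up 50.7% to 67.3%. Next came Cxcl12 at 36.4 FPKM, Cxcl17 at 30.1, Cxcl14 at 26.5, Cxcl16 at 19.5, Ccl5 at 19.1 and the Cxcl12 receptor Cxcr4 at 18.9 FPKM. The neighbours Cxcl16, Ccl5 and Cxcr4 differed by less than their spread over libraries. Among the atypical receptors Ackr2 was highest at 11.8 FPKM, followed by Ackr3 at 6.69 FPKM.

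**Figure D1:**
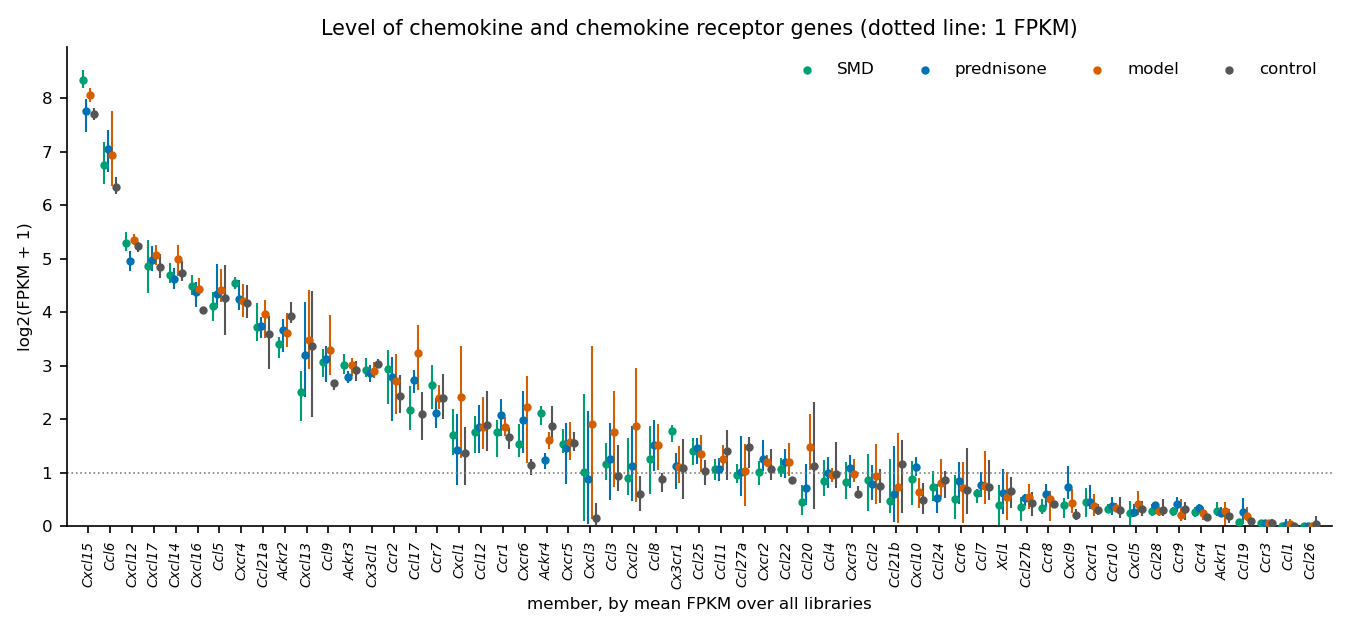
Level of the members as log2(FPKM + 1), except 1 that is not reported, ordered by mean FPKM. Points are group means and vertical lines run from the lowest to the highest of 5 libraries. Cxcl15 and Ccl6 stand far above the rest, and members right of Ccl4 lie mostly under the dotted line at 1 FPKM.

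The 18 members that were not tested were Ackr1, Ccl1, Ccl19, Ccl24, Ccl26, Ccl27b, Ccl28, Ccl7, Ccr10, Ccr3, Ccr4, Ccr6, Ccr8, Ccr9, Cxcl5, Cxcl9, Cxcr1 and Xcl1. Their highest value in any library was 1.77 FPKM, and 9 of them stayed at or below 0.5 FPKM in every library. They include 2 of the 3 eotaxins: Ccl24 averaged 0.689 FPKM, and Ccl26 was listed at 0 in 19 of 20 libraries. The eotaxin receptor Ccr3 averaged 0.0427 FPKM and the Ccl17 receptor Ccr4 averaged 0.197 FPKM. Ccl11, the remaining eotaxin, averaged 1.12 ± 0.207 FPKM in SMD lungs, 1.1 ± 0.249 in prednisone lungs, 1.42 ± 0.337 in model lungs and 1.70 ± 0.623 in control lungs (SD, n = 5 each), and it was called in no comparison by limma (lowest adjusted p 0.19, prednisone against control).

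The libraries were lung by their markers: Sftpc, the surfactant protein gene of alveolar type 2 cells, lay between 11100 and 17400 FPKM, and Scgb1a1, the club cell secretoglobin gene, between 34400 and 56300 FPKM. Summed FPKM ran from 377639 to 522361 per library. Read depth is unknown. Of 16 genes that glucocorticoids are known to induce, 0 were called higher in prednisone lungs than in model lungs by limma (1 at an unadjusted p under 0.05). Against control lungs, 1 of the 16, Sgk1, was called higher in prednisone lungs, where 1.78% of all genes were. At an unadjusted p under 0.05, 8 of the 16 were higher and 0 lower, where 10.2% of all genes were higher. The list's median log2 fold change there was 0.43, beside -0.004 over all genes. The same list was lower in SMD lungs than in every other group, with 14 of the 16 called lower against prednisone lungs, 9 against model lungs and 6 against control lungs. Labels were used as given. Eosinophil markers were low, at a sum over 4 genes of 1.18 to 3.19 FPKM across all libraries. Some libraries stood apart. Fat markers summed to 19 to 46.8 FPKM over 9 genes in SMD lungs, 20.4 to 121 in prednisone lungs, 39.7 to 482 in model lungs and 75.6 to 936 in control lungs, and control replicates 1 and 4 were highest. Cardiac muscle markers summed to 95.2 to 145 FPKM over 8 genes in SMD lungs, 74.8 to 256 in prednisone lungs, 129 to 257 in model lungs and 153 to 539 in control lungs. Glycam1, a gene of lymph node vessels, was at 46.9 and 31.4 FPKM in prednisone replicates 1 and 2, and at 0 to 3.2 FPKM in the other libraries. Where leaving out both of these prednisone libraries, or control replicates 1 and 4, ended a call, this is given beside it. In whole tissue, fewer cells of a type and less RNA per cell cannot be told apart.

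The first comparison asks what the asthma model does to the family. Ccl17, which draws Ccr4-bearing T helper type 2 cells and is made mainly by dendritic cells and macrophages, was the member that rose. It lies on chromosome 8 from 94810453 to 94812036 (GRCm38, plus strand). Ccl17 stood at 12.2, 12.6, 4.83, 9.23 and 5.99 FPKM in model libraries 1 to 5, against 4.38, 4.71, 2.07, 3.54 and 2.29 FPKM in control libraries 1 to 5. The lowest model library lay just above the highest control library, and the model group was the more spread of the pair, with SDs of 3.52 and 1.19 FPKM. The log2 fold change on log2(FPKM + 1) was 1.15 (SE 0.23, limma adjusted p = 0.0489, exact permutation p = 0.00794, two-sided, the smallest that 5 libraries against 5 allow). This scale understates the change of low genes. The adjusted p lay between 0.0528 and 0.152 in all 7 other ways of processing, and between 0.055 and 0.155 without any 1 of 14 libraries: SMD replicates 1, 2, 4 and 5, prednisone replicates 3, 4 and 5, model replicates 1 and 2, and each control replicate. It was 0.0566 without prednisone replicates 1 and 2 together and 0.101 without control replicates 1 and 4. Dendritic cell markers summed to 89.6 to 107 FPKM over 11 genes in model lungs, against 77.3 to 99.4 in control lungs, and 0 were called. Interstitial macrophage markers summed to 359 to 524 FPKM over 8 genes in model lungs, against 275 to 382 in control lungs, with C1qa called higher. The C1qa call ended with median-of-ratios scaling, quantile normalization or only the groups compared, where 0 genes were called. Alveolar macrophage markers summed to 151 to 213 FPKM over 10 genes in model lungs, against 153 to 177 in control lungs, and 0 were called. The part of these cells in the Ccl17 result was not tested.

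Ccl17 was 1 of 40 tested members called in this comparison, where 0.192% of all 15106 genes tested were called. At an unadjusted p under 0.05, 17 members were higher and 2 lower in model lungs, where 15.8% of all genes passed in either direction (13% higher, 2.81% lower). The median log2 fold change of the tested members was 0.21, beside 0.055 over all genes, and 7 members had groups that did not overlap, where 3.17% of all genes did. Those 7 were Ccl17, Ccl22, Ccl8, Ccl9, Cxcl15, Cxcl16 and Cxcr3, each higher in model lungs. In a fit of only model and control lungs, Ccl22 and Cxcr3 were under the filter and were not tested. Both therefore passed the main filter with libraries of the treated groups. The fit of only model and control lungs tested 32 members, and 14 passed an unadjusted p under 0.05. For Ccl8 the log2 fold change was 0.65 (SE 0.22, limma adjusted p = 0.185). In prednisone against control lungs it was 0.65 as well, without overlap (limma adjusted p = 0.106).

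By role, the differences past an unadjusted p of 0.05 were spread over chemokines and receptors. They were higher in model lungs for 2 of 2 tested T helper type 2 and dendritic cell chemokines, 4 of 4 neutrophil chemokines, 2 of 2 rodent myeloid chemokines, 2 of 6 inflammatory CC chemokines (Ccl3 and Ccl8), 2 of 5 lymphoid and epithelial CC chemokines (Ccl21a and Ccl25) and 2 of 6 other CXC, CX3C and XC chemokines (Cxcl14 and Cxcl16). Among receptors they were higher for Cxcr3 and Cxcr6 of 6 tested CXC and CX3C receptors, and lower for Ackr2 and Ackr4 of 3 atypical receptors. The eotaxin Ccl11 and the interferon-induced Cxcl10 did not pass. Of the members that passed, Ccl22, Cxcl2, Cxcl3 and Cxcr3 were under the filter in a fit of only model and control lungs.

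Cxcl16, a membrane-bound chemokine, and its receptor Cxcr6, found on effector and resident T cells, came next in order of p. Cxcl16 stood at 24.0, 22.1, 19.5, 19.2 and 19.3 FPKM in model libraries, against 15.6, 15.1, 15.6, 15.4 and 15.8 FPKM in control libraries. Control libraries were nearly identical and no model library came down to them, with a log2 fold change of 0.40 (SE 0.085, limma adjusted p = 0.0574). Cxcr6 stood at 5.75, 5.99, 2.26, 5.66 and 1.28 FPKM in model libraries, against 1.39, 1.08, 1.33, 0.956 and 1.39 FPKM in control libraries. Model replicates 1, 2 and 4 were high, model replicate 5 lay inside the control range, and the difference of 1.09 (SE 0.28) had an adjusted p of 0.0843. On the opposite strand Cxcr6 overlaps Fyco1 and Cxcl16 overlaps Zmynd15, and no source used here says whether reads were counted by strand. The log2 fold change was -0.08 for Fyco1 and 0.17 for Zmynd15, and neither was called.

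Cxcl15 stood at 291, 274, 271, 264 and 244 FPKM in model libraries, against 202, 224, 213, 208 and 192 FPKM in control libraries. All 5 model libraries lay above all 5 control libraries, with a log2 fold change of 0.37 (SE 0.10, limma adjusted p = 0.107). The rodent myeloid chemokine Ccl9 stood at 14.5, 8.81, 6.10, 10.4 and 6.44 FPKM in model libraries, against 5.52, 5.63, 4.82, 5.66 and 5.30 FPKM in control libraries. Its groups did not overlap either (0.62, SE 0.17, adjusted p = 0.107). Ccl6, its neighbour on chromosome 11, averaged 130 ± 55.9 FPKM in model lungs and 80.1 ± 7.42 in control lungs (SD, n = 5 each), a difference of 0.60 with an adjusted p of 0.214. Alveolar type 2 markers summed to 17500 to 20100 FPKM over 8 genes in model lungs, against 12900 to 16700 in control lungs, and 0 were called by limma. At an unadjusted p under 0.05, 7 of these 8 markers were higher in model lungs, where 13% of all genes were. Their part in the Cxcl15 difference was not tested.

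The neutrophil chemokines Cxcl1, Cxcl2 and Cxcl3, which share the same NF-kB run in their promoters and lie close together on chromosome 5, differed widely among the model libraries. Their values are given in full because of this spread, a choice made after it was seen. Cxcl1 stood at 9.31, 6.30, 1.54, 8.56 and 1.42 FPKM in model libraries, against 0.697, 2.06, 2.59, 0.708 and 2.64 FPKM in control libraries. Cxcl2 stood at 6.82, 4.61, 0.372, 5.19 and 0.752 FPKM in model libraries, against 0.412, 0.504, 0.654, 0.226 and 0.911 FPKM in control libraries. Cxcl3 stood at 9.29, 5.87, 0.0947, 6.98 and 0.192 FPKM in model libraries, against 0.0121, 0.353, 0.0443, 0.0364 and 0.18 FPKM in control libraries. For each gene model replicates 1, 2 and 4 were above every control library, and model replicates 3 and 5 lay among the controls. The log2 fold changes were 1.05 (SE 0.40), 1.26 (SE 0.41) and 1.74 (SE 0.59), with adjusted p of 0.215, 0.157 and 0.18, so none was called. Cxcl3 passed the filter with 6 libraries at 1 FPKM or more, 3 of them model libraries. With only model and control lungs fitted, Cxcl2 and Cxcl3 were under the filter and were not tested.

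The macrophage inflammatory protein gene Ccl3 followed the same split, at 4.76, 2.80, 0.673, 3.59 and 1.72 FPKM in model libraries, against 0.576, 1.86, 0.96, 0.72 and 0.757 FPKM in control libraries (0.82, SE 0.29, adjusted p = 0.189). Neutrophil markers summed to 98.0, 99.7, 62.0, 85.8 and 76.7 FPKM over 10 genes in model libraries 1 to 5, against 62.4, 105, 57.7, 47.0 and 47.1 FPKM in control libraries 1 to 5. The 3 highest model sums were in replicates 1, 2 and 4, and control replicate 2, the highest of all, had 0.504 FPKM of Cxcl2 and 0.353 FPKM of Cxcl3. The part of these markers in the chemokine values was not tested. The neutrophil receptor Cxcr2 averaged 1.30 ± 0.138 FPKM in model lungs and 1.12 ± 0.375 in control lungs, with an adjusted p of 0.622.

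**Figure D2:**
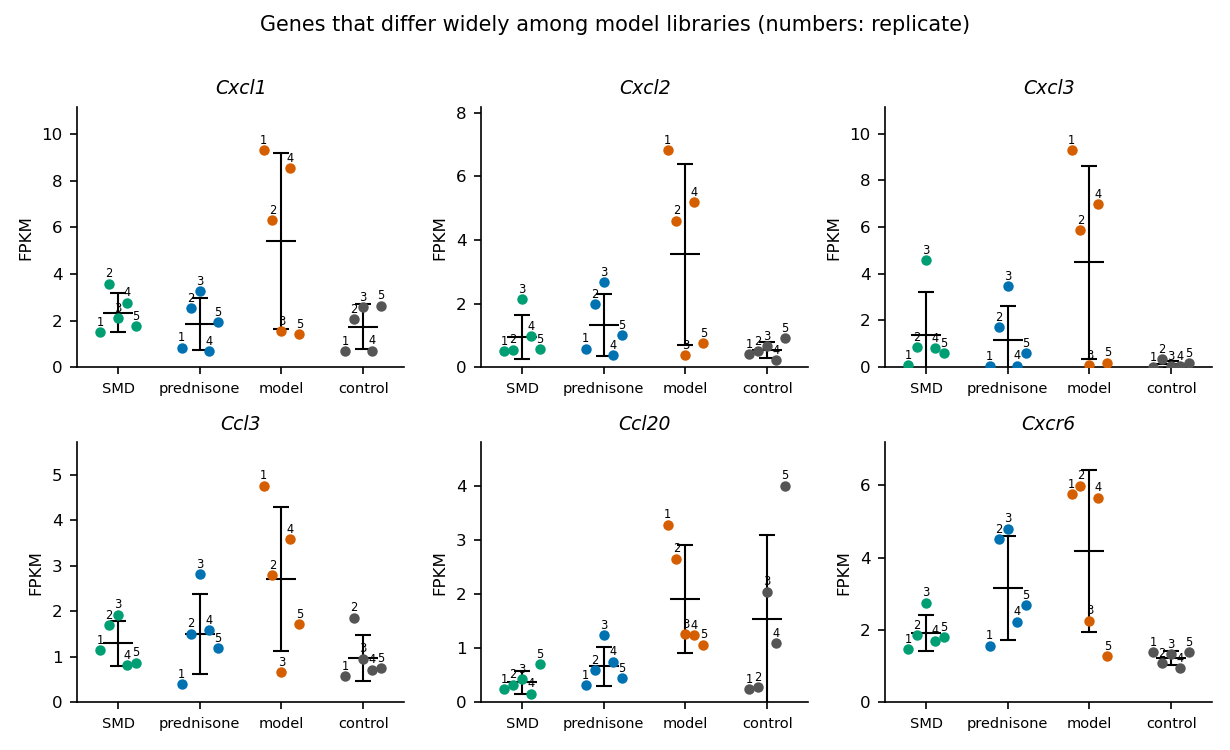
FPKM of 6 members in each library, with replicate numbers beside the points; bars give the mean and SD of 5 libraries. In Cxcl1, Cxcl2, Cxcl3 and Cxcr6 model replicates 1, 2 and 4 stand above model replicates 3 and 5, and in Cxcl3 SMD replicate 3 and prednisone replicates 2 and 3 are raised as well.

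The second comparison asks what SMD changed against the model. Ccl17 fell, and Ackr4, a scavenging receptor for Ccl19, Ccl21 and Ccl25, rose. Ccl17 stood at 4.19, 2.47, 5.19, 2.61 and 3.73 FPKM in SMD libraries, against 12.2, 12.6, 4.83, 9.23 and 5.99 FPKM in model libraries. SMD replicate 3 lay above the lowest model library and the other SMD libraries lay below all of them, with a log2 fold change of -1.06 (SE 0.23, limma adjusted p = 0.0261, exact permutation p = 0.0159). The SMD libraries ran from 2.47 to 5.19 FPKM and the control libraries from 2.07 to 4.71 FPKM. The SMD against control difference was 0.09, with a 95% interval from -0.40 to 0.57. The call ended without SMD replicate 2 (adjusted p = 0.0691), SMD replicate 4 (0.0513), model replicate 1 (0.0566) or model replicate 2 (0.0585). It also ended with no filter (0.0683), with quantile normalization (0.0502) and with only the groups compared (0.0822). Interstitial macrophage markers summed to 301 to 373 FPKM in SMD lungs, against 359 to 524 in model lungs, and dendritic cell markers to 92.3 to 101 FPKM in SMD lungs, against 89.6 to 107 in model lungs, and 0 genes of either list were called. The 7 tested fat markers were all lower in SMD lungs at an unadjusted p under 0.05, and 0 were called. The part of these in the Ccl17 result was not tested.

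Ackr4 stood at 3.61, 3.42, 3.18, 3.75 and 2.70 FPKM in SMD libraries, against 2.38, 1.74, 2.22, 1.84 and 2.08 FPKM in model libraries. Every SMD library lay above every model library, with a log2 fold change of 0.51 (SE 0.10, limma adjusted p = 0.0228, exact permutation p = 0.00794). The call ended without SMD replicate 2 (adjusted p = 0.0606) or model replicate 5 (0.053). Ackr4 lies on chromosome 9 from 104084157 to 104126933 on the minus strand and overlaps Acad11, an acyl-CoA dehydrogenase gene on the other strand. Acad11 averaged 5.06 ± 0.254 FPKM in SMD lungs and 5.69 ± 0.457 in model lungs, a log2 fold change of -0.14 that was not called. Only whole gene spans were compared, and whether exons of Ackr4 and Acad11 overlap was not checked. Reads from any exon bases that they share cannot be told apart without strand. Ackr4 marks stromal and lymphatic cells in other tissues, and lymphatic endothelial markers summed to 83.8 to 104 FPKM over 6 genes in SMD lungs, against 92.1 to 127 in model lungs. Fibroblast markers summed to 1670 to 2090 FPKM over 8 genes in SMD lungs, against 2210 to 2530 in model lungs. The fibroblast sum was lower in every SMD library than in any model library, and the part of either list in the Ackr4 result was not tested.

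These were 2 of 40 tested members called, 1 in each direction, where 2.15% of all genes were called (0.245% higher, 1.91% lower). At an unadjusted p under 0.05, 4 members were higher and 6 lower in SMD lungs, where 18.9% of all genes passed (3.14% higher, 15.7% lower). The members' median log2 fold change was -0.14, beside -0.06 over all genes. Groups did not overlap for 5 members, where 4.62% of all genes did: Ackr4, Cx3cr1 and Cxcl15 were higher in SMD lungs and Ccl20 and Cxcl13 lower.

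Cx3cr1, the fractalkine receptor of monocytes and macrophages, stood at 2.00, 2.41, 2.73, 2.56 and 2.46 FPKM in SMD libraries, against 1.23, 1.83, 1.23, 0.867 and 0.753 FPKM in model libraries. The groups were apart, yet the difference of 0.67 (SE 0.19) had an adjusted p of 0.0696. Cx3cr1 spans several other genes on both strands, among them Csrnp1, whose log2 fold change here was -0.61. Monocyte markers summed to 149 to 239 FPKM over 8 genes in SMD lungs, against 155 to 216 in model lungs, and their part in the Cx3cr1 difference was not tested. Its ligand Cx3cl1 averaged 6.56 ± 0.77 FPKM in SMD lungs and 6.52 ± 0.587 in model lungs.

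Ccl20, an epithelial chemokine that binds Ccr6, stood at 0.246, 0.329, 0.425, 0.164 and 0.709 FPKM in SMD libraries, against 3.29, 2.66, 1.27, 1.25 and 1.07 FPKM in model libraries. All SMD libraries were lower than all model libraries (-1.03, SE 0.31, limma adjusted p = 0.0792). No SMD library reached 1 FPKM and every model library did, so Ccl20 passed the filter only through groups other than SMD. Control libraries ranged more widely, from 0.247 to 4.01 FPKM. Cxcl13, which draws B cells through Cxcr5, stood at 3.86, 2.93, 6.53, 5.46 and 5.49 FPKM in SMD libraries, against 9.06, 9.08, 20.5, 9.30 and 6.67 FPKM in model libraries. The highest SMD library lay just under the lowest model library (-0.97, SE 0.41, adjusted p = 0.204). B cell markers summed to 34.4 to 58.3 FPKM over 8 genes in SMD lungs, against 27.4 to 72.3 in model lungs.

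Cxcr4 stood at 21.9, 20.7, 24.3, 24.3 and 21.0 FPKM in SMD libraries, against 16.6, 22.2, 17.5, 18.1 and 14.1 FPKM in model libraries. Only model replicate 2 reached the SMD range (0.34, SE 0.12, adjusted p = 0.142). Its ligand Cxcl12 averaged 38.3 ± 3.89 FPKM in SMD lungs and 39.8 ± 2.30 in model lungs. The difference in Cxcl12 was -0.06, with a 95% interval from -0.21 to 0.095. Cxcl1, Cxcl2 and Cxcl3 averaged 2.35, 0.95 and 1.39 FPKM in SMD lungs, against 5.43, 3.55 and 4.49 FPKM in model lungs, and none was called (adjusted p of 0.343, 0.203 and 0.435).

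The third comparison asks the same of prednisone. Cxcl12, the stromal chemokine that holds Cxcr4-bearing cells, Cxcl14, a constitutive tissue chemokine, and Ackr4 fell. Cxcl12 stood at 26.5, 30.7, 34.5, 28.2 and 32.1 FPKM in prednisone libraries, against 43.4, 39.8, 37.5, 40.0 and 38.2 FPKM in model libraries. Every prednisone library lay below every model library, with a log2 fold change of -0.38 (SE 0.07, limma adjusted p = 0.00713, exact permutation p = 0.00794). Leaving out any 1 library did not end this call, and quantile normalization did (adjusted p = 0.0542). Cxcl12 lies on chromosome 6 from 117168535 to 117181367 (plus strand).

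Cxcl14 stood at 22.3, 25.1, 20.7, 27.4 and 23.7 FPKM in prednisone libraries, against 32.4, 33.0, 37.5, 28.9 and 24.5 FPKM in model libraries. Model replicate 5 lay within the prednisone range and the others above it (-0.37, SE 0.10, limma adjusted p = 0.0333). Cxcl14 was also lower in SMD lungs than in model lungs (-0.30) without being called, and SMD lungs differed from prednisone lungs by 0.07. Ackr4 stood at 1.10, 1.36, 1.59, 1.38 and 1.36 FPKM in prednisone libraries, against 2.38, 1.74, 2.22, 1.84 and 2.08 FPKM in model libraries. Its groups did not overlap (-0.37, SE 0.10, limma adjusted p = 0.0345). The Cxcl14 call ended without prednisone replicates 1, 3 or 5 or model replicates 1, 2 or 3 (adjusted p of 0.0594 to 0.0973), and the Ackr4 call without prednisone replicates 1, 2, 4 or 5 or model replicates 1, 3 or 5 (0.06 to 0.0856). Other processing also ended the Cxcl14 call: quantile normalization (0.2), no filter (0.0807), scaling by median of ratios (0.0709) and a fit of only these groups (0.074). The Ackr4 call ended with no filter (0.0737) and with median-of-ratios scaling (0.056). Without prednisone replicates 1 and 2 together, the Cxcl14 adjusted p was 0.11 and that of Ackr4 0.158, while Cxcl12 was still called.

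Marker lists of cells that can make Cxcl12 also held genes called lower. Smooth muscle markers summed to 107 to 153 FPKM over 5 genes in prednisone lungs, against 145 to 195 in model lungs, and 2 of the 5, Acta2 and Des, were called lower. Endothelial markers summed to 557 to 723 FPKM over 10 genes in prednisone lungs, against 691 to 850 in model lungs, with Plvap and Gpihbp1 called lower. Fibroblast markers summed to 1590 to 2060 FPKM over 8 genes in prednisone lungs, against 2210 to 2530 in model lungs, with Inmt and Tcf21 called lower. In SMD lungs, where Cxcl12 differed from model lungs by -0.06, the sums of these lists were 153 to 183, 679 to 934 and 1670 to 2090 FPKM, in that order. The part of these cells in the lower Cxcl12, Cxcl14 and Ackr4 was not tested.

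The prednisone calls were 3 of 40 tested members, all lower, where 8.04% of all genes were called (0.914% higher, 7.13% lower), so the share of members called was close to that of all genes. At an unadjusted p under 0.05, 1 member was higher and 8 lower in prednisone lungs, where 23.6% of all genes passed (5.04% higher, 18.5% lower). The median log2 fold change was -0.10, beside -0.05 over all genes, and 3 members had groups that did not overlap (7.58% of all genes). The third of those members was Cxcl10, an interferon-induced chemokine that binds Cxcr3. Cxcl10 stood at 0.921, 1.29, 1.01, 1.13 and 1.44 FPKM in prednisone libraries, against 0.842, 0.265, 0.299, 0.867 and 0.62 FPKM in model libraries, and the difference was 0.47 (SE 0.16, adjusted p = 0.0741). Interferon response genes summed to 201 to 392 FPKM over 20 genes in prednisone lungs, against 170 to 220 in model lungs, and 8 of the 20 were called higher. Their part in the Cxcl10 difference was not tested.

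The remaining member among the 5 with the smallest p was Cxcl15. Cxcl15 stood at 164.2, 245.3, 239.0, 200.7 and 252.4 FPKM in prednisone libraries, against 290.7, 274.4, 270.9, 264.2 and 244.2 FPKM in model libraries (-0.30, SE 0.10, adjusted p = 0.0721). Ccl20 was also lower in prednisone lungs than in model lungs (-0.76) and was not called. Ccl17 averaged 5.68 ± 0.87 FPKM in prednisone lungs and 8.96 ± 3.52 in model lungs (SD, n = 5 each), and was not called (-0.51, adjusted p = 0.192). Cxcl1, Cxcl2 and Cxcl3 averaged 1.86, 1.33 and 1.18 FPKM in prednisone lungs, against 5.43, 3.55 and 4.49 FPKM in model lungs, and none was called (adjusted p of 0.128, 0.276 and 0.312).

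**Figure D3:**
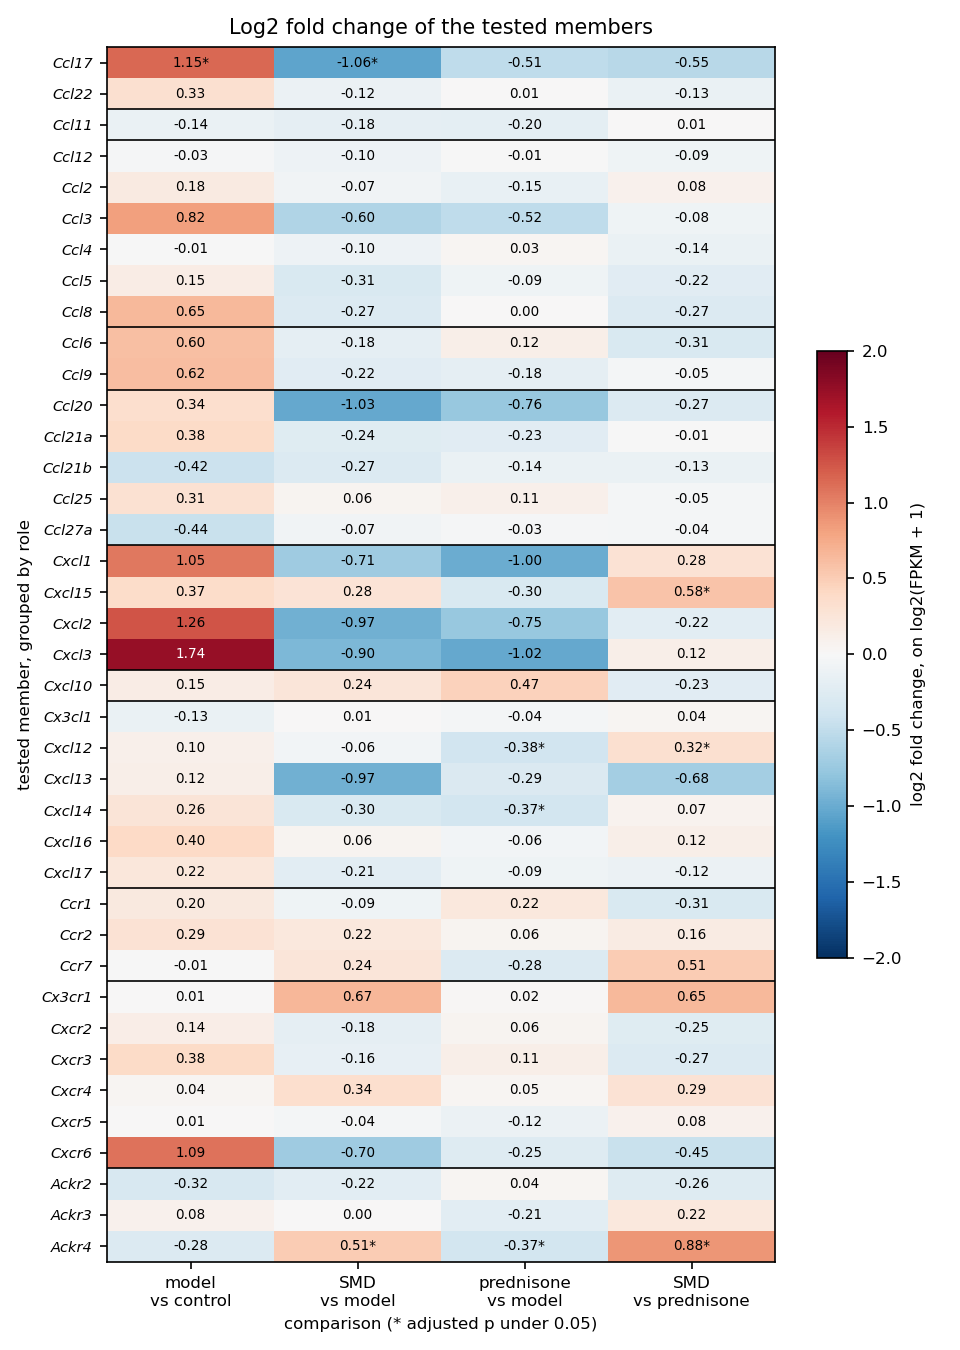
Log2 fold change of the tested members, except 1 that is not reported, in 4 comparisons, ordered by role, on log2(FPKM + 1); an asterisk marks an adjusted p under 0.05. Ccl17 is high in model against control and low in SMD against model, and Ackr4 is the member marked in all 3 comparisons that involve a treatment.

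The direct comparison of the treatments, SMD against prednisone, had the smallest adjusted p of any member. Ackr4 stood at 3.61, 3.42, 3.18, 3.75 and 2.70 FPKM in SMD libraries, against 1.10, 1.36, 1.59, 1.38 and 1.36 FPKM in prednisone libraries. The lowest SMD library stood well above the highest prednisone library, with a log2 fold change of 0.88 (SE 0.10, limma adjusted p = 0.000184). The Ackr4 call held in all 27 alternatives, with adjusted p from 0.000125 to 0.00147, and Acad11 on the other strand differed by -0.08 without being called. In order of its mean level Ackr4 ran prednisone 1.36 ± 0.173, model 2.05 ± 0.265, control 2.72 ± 0.649 and SMD 3.33 ± 0.41 FPKM (SD, n = 5 each). Model and control overlapped, as did SMD and control.

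Cxcl15 stood at 302.1, 290.7, 303.0, 367.4 and 370.5 FPKM in SMD libraries, against 164.2, 245.3, 239.0, 200.7 and 252.4 FPKM in prednisone libraries. Every SMD library was higher, with a log2 fold change of 0.58 (SE 0.10, limma adjusted p = 0.00325), and this call held in all 27 alternatives (0.00118 to 0.0354). Cxcl15 lies on chromosome 5 from 90794534 to 90803067 (plus strand), between Cxcl3 and Cxcl1. The Ackr4 and Cxcl15 calls also held without prednisone replicates 1 and 2 together and without control replicates 1 and 4. Of the epithelial lists, alveolar type 2 markers summed to 13700 to 17200 FPKM in SMD lungs, against 13300 to 17400 in prednisone lungs, and club cell markers to 41000 to 55400 FPKM over 5 genes in SMD lungs, against 36200 to 58900 in prednisone lungs, and 0 genes of either list were called. Alveolar type 1 markers summed to 1130 to 1450 FPKM over 6 genes in SMD lungs, against 1130 to 1280 in prednisone lungs, with Aqp5 called higher. Ciliated cell markers summed to 164 to 262 FPKM over 6 genes in SMD lungs, against 190 to 241 in prednisone lungs, with Foxj1 called lower. The part of these cells in the Cxcl15 difference was not tested.

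Cxcl12 stood at 35.9, 39.5, 37.1, 44.4 and 34.5 FPKM in SMD libraries, against 26.5, 30.7, 34.5, 28.2 and 32.1 FPKM in prednisone libraries. SMD replicate 5 and prednisone replicate 3 lay at the same level and the other SMD libraries were higher (0.32, SE 0.07, limma adjusted p = 0.0152). The call ended with the groups compared fitted alone (0.0672) and without prednisone replicates 1 and 2 together (0.11). Endothelial markers summed to 679 to 934 FPKM in SMD lungs, against 557 to 723 in prednisone lungs, with Plvap and Kdr called higher, and smooth muscle markers to 153 to 183 FPKM in SMD lungs, against 107 to 153 in prednisone lungs, with Acta2 called higher. Fibroblast markers summed to 1670 to 2090 FPKM in SMD lungs, against 1590 to 2060 in prednisone lungs, and 0 were called. The part of these lists in the Cxcl12 difference was not tested.

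In all, 3 of 40 tested members were called, each higher in SMD lungs, where 4.59% of all genes were called (2.16% higher, 2.42% lower). At an unadjusted p under 0.05, 7 members were higher and 2 lower in SMD lungs, where 19.5% of all genes passed (9.7% higher, 9.78% lower). The median was -0.05 beside -0.004 over all genes, and 3 members did not overlap (6.08% of all genes), namely Ackr4, Cxcl15 and Cx3cr1. Cx3cr1 averaged 2.43 ± 0.272 FPKM in SMD lungs and 1.22 ± 0.44 in prednisone lungs (0.65, SE 0.19, adjusted p = 0.0591), and 4 of the 7 other ways of processing called it, as did the fits without control replicates 4 or 5. Csrnp1, within the span of Cx3cr1 on the same strand, was called lower in SMD lungs (-1.06). Ccr7, the receptor that takes dendritic cells to lymph nodes, stood at 5.51, 5.58, 4.77, 7.10 and 3.60 FPKM in SMD libraries, against 3.44, 4.24, 2.78, 3.93 and 2.58 FPKM in prednisone libraries. SMD replicate 5 lay inside the prednisone range (0.51, SE 0.16, adjusted p = 0.076). The prednisone libraries with high Glycam1, replicates 1 and 2, were at 3.44 and 4.24 FPKM of Ccr7, and the part of lymph node tissue in this difference was not tested. The Ccr7 ligand Ccl21a averaged 12.5 ± 2.74 FPKM in SMD lungs and 12.4 ± 1.70 in prednisone lungs, and reads of Ccl21a and its near-identical copies may be split among them.

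**Figure D4:**
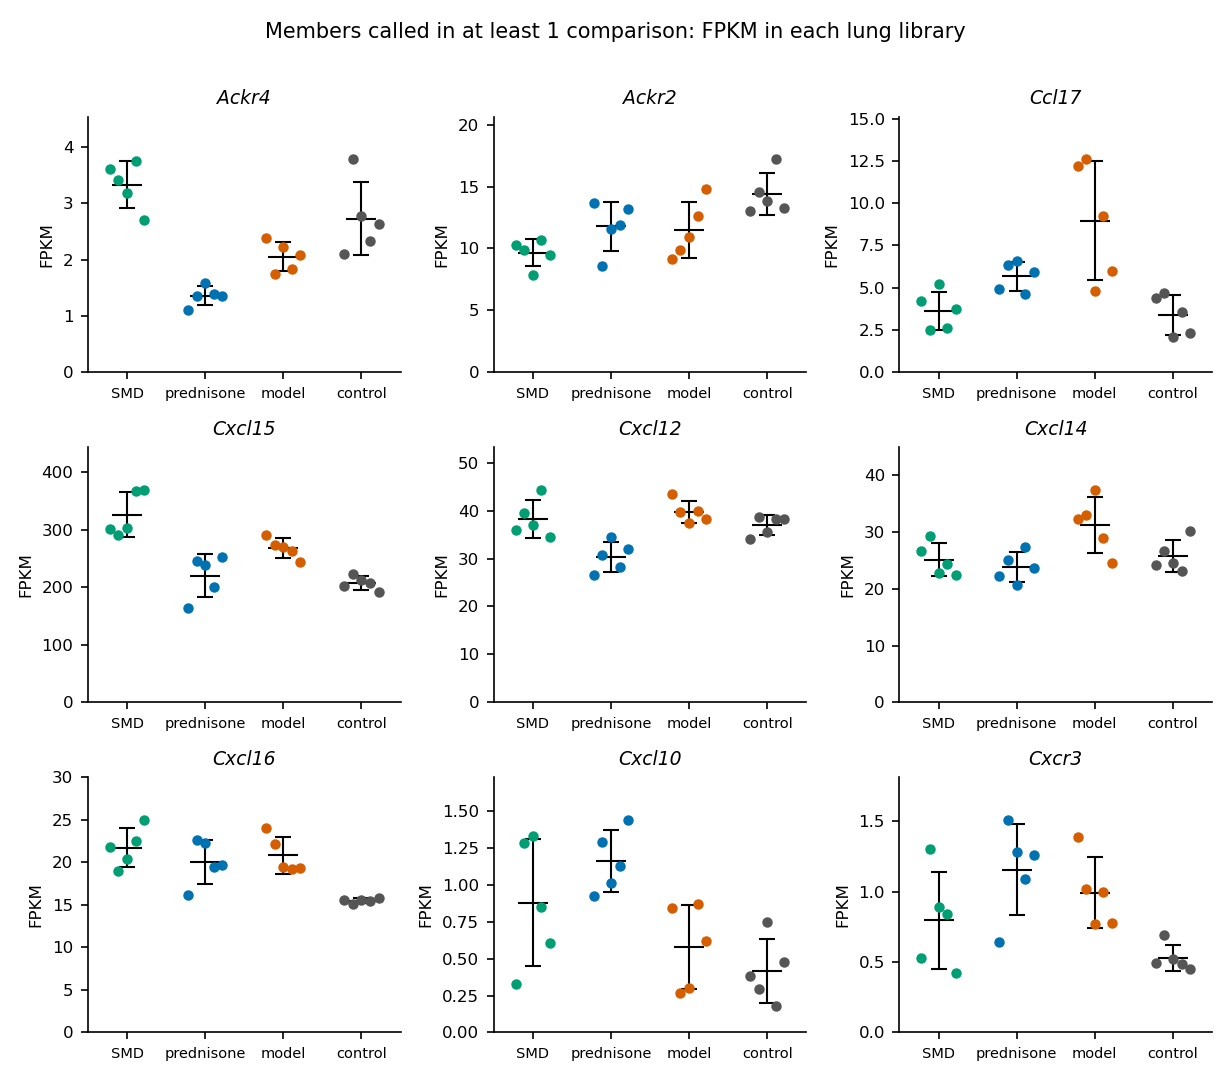
FPKM of the 9 members called in at least 1 comparison, in each of 20 libraries; bars give the mean and SD of 5 libraries. Ackr4 is lowest in prednisone lungs and highest in SMD lungs without overlap between them, and Cxcl16 in control lungs lies under all libraries of the other groups.

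Each treatment was also compared with control lungs. These comparisons share control libraries with the first one, so their values are given side by side. Cxcl16 was higher in both: it stood at 21.8, 19, 20.4, 22.5 and 25.0 FPKM in SMD libraries and at 16.2, 22.6, 22.3, 19.4 and 19.7 FPKM in prednisone libraries, against 15.1 to 15.8 FPKM in control libraries. No treated library came down to the control range. The log2 fold change was 0.46 for SMD (SE 0.085, limma adjusted p = 0.0167) and 0.34 for prednisone (SE 0.085, adjusted p = 0.0322), beside 0.40 for the model. The SMD call ended without SMD replicate 5 (0.0508) or control replicate 4 (0.0542). The prednisone call ended without prednisone replicates 2, 3 or 5 or control replicates 1, 2, 3 or 4 (0.0522 to 0.0951), with no filter (0.0692) and with only the groups compared (0.0643). Without control replicates 1 and 4 together the adjusted p was 0.135 for SMD and 0.134 for prednisone. Zmynd15, on the other strand, was called higher in prednisone lungs too (0.50, limma adjusted p = 0.0322). Whether exons of Zmynd15 and Cxcl16 overlap was not checked, and reads from any shared exon bases cannot be told apart without strand.

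In SMD lungs against control lungs Cxcl15 was higher and Ackr2 lower. Cxcl15 stood at 291 to 370 FPKM in SMD libraries, against 192 to 224 FPKM in control libraries (0.64, SE 0.10, limma adjusted p = 0.00683), and the call held in 27 alternatives (0.00116 to 0.0285) but not without control replicates 1 and 4 together (0.0835). Ackr2, which clears inflammatory CC chemokines, stood at 10.3, 9.89, 7.84, 10.7 and 9.5 FPKM in SMD libraries, against 13.0, 14.6, 13.8, 17.2 and 13.3 FPKM in control libraries. The groups did not overlap (-0.53, SE 0.12, limma adjusted p = 0.0442). This Ackr2 call ended without any 1 of 15 libraries (0.0503 to 0.14), namely every SMD and control replicate, prednisone replicates 3 and 4 and model replicates 2, 3 and 4. It also ended with no filter (0.11), median-of-ratios scaling (0.0508) and quantile normalization (0.0512), and without control replicates 1 and 4 together (0.245). Of the tissue markers, 7 of 7 tested fat markers and 8 of 8 cardiac muscle markers were lower in SMD lungs at an unadjusted p under 0.05, with Fabp4, Car3 and Myl7 called lower, as was the smooth muscle gene Myh11. Their part in the Cxcl15, Cxcl16 and Ackr2 results was not tested. With Cxcl16, 3 of 40 tested members were called, 2 higher and 1 lower, where 1.05% of all genes were called (0.291% higher, 0.761% lower). At an unadjusted p under 0.05, 10 were higher and 4 lower, where 14.5% of all genes passed (6.48% higher, 8.06% lower). The median was 0.17 beside -0.004 over all genes, and 6 members did not overlap (4.66% of all genes). Cx3cr1 was also higher in SMD lungs than in control lungs (0.68) and was not called. Cxcr4 averaged 22.4 ± 1.75 FPKM in SMD lungs and 17.2 ± 2.98 in control lungs (0.37, adjusted p = 0.144).

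In prednisone lungs against control lungs Cxcl10 and its receptor Cxcr3 rose with Cxcl16, and Ackr4 and Cxcl12 fell. Cxcl10 stood at 0.921 to 1.44 FPKM in prednisone libraries, against 0.379, 0.295, 0.75, 0.177 and 0.476 FPKM in control libraries, without overlap (0.62, SE 0.16, limma adjusted p = 0.0354). Cxcl10 overlaps Art3 on the other strand, which averaged 3.09 FPKM. Whether their exons overlap was not checked, and reads from any shared exon bases cannot be told apart without strand. Art3 differed by -0.33 here and by 0.24 between prednisone and model lungs, and was not called in either. Cxcr3, found on T helper type 1, CD8 and natural killer cells, stood at 0.643, 1.51, 1.28, 1.09 and 1.26 FPKM in prednisone libraries, against 0.491, 0.693, 0.523, 0.485 and 0.452 FPKM in control libraries. Only prednisone replicate 1 lay inside the control range (0.49, SE 0.13, limma adjusted p = 0.0442). Cxcl9, the neighbour of Cxcl10 and also a Cxcr3 ligand, was under the filter at 0.698 ± 0.361 FPKM in prednisone lungs and 0.156 ± 0.0747 in control lungs, and the fit with no filter called it (0.53, adjusted p = 0.0489). The Cxcl10 call ended without prednisone replicates 2, 3, 4 or 5 or control replicates 1, 2 or 4 (0.055 to 0.0915), and the Cxcr3 call without any 1 of 11 libraries (0.0515 to 0.122): SMD replicate 4, prednisone replicates 2 to 5, model replicate 2 and each control replicate. Neither was called with no filter (0.0799 and 0.0957), without prednisone replicates 1 and 2 together (0.103 and 0.0673) or without control replicates 1 and 4 (0.197 and 0.188). No control library reached 1 FPKM for either gene, so both passed the filter through libraries of other groups. With only the groups compared, both were under the filter and were not tested. The same held for Cxcl10 in a fit of only prednisone and model lungs.

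Interferon response genes were higher than in control lungs as well, and not in prednisone lungs alone. Over 20 such genes the sum was 201 to 392 FPKM in prednisone lungs, against 150 to 183 in control lungs, and 11 of the 20 were called higher. In SMD lungs the sum was 186 to 322 FPKM, and 1 of the 20, Usp18, was called higher than in control lungs. At an unadjusted p under 0.05 by limma, 16 of the 20 were higher in each treatment. Cxcl10 differed by 0.39 between SMD and control lungs and was not called. Natural killer cell markers summed to 37.5 to 98.7 FPKM over 8 genes in prednisone lungs, against 28.5 to 73.4 in control lungs, and T cell markers to 27.3 to 39.5 FPKM over 10 genes, against 24.6 to 42.8 in control lungs. Neither list had a called gene by limma, with 0 and 1 of them at an unadjusted p under 0.05. Alveolar macrophage markers summed to 173 to 288 FPKM over 10 genes in prednisone lungs, against 153 to 177 in control lungs, with Plet1, Mrc1 and Chil3 called higher. Interstitial macrophage markers summed to 314 to 636 FPKM over 8 genes in prednisone lungs, against 275 to 382 in control lungs, with C1qa and C1qc called higher. The part of these genes and cells in the Cxcl10, Cxcr3 and Cxcl16 results was not tested.

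Ackr4 stood at 1.10 to 1.59 FPKM in prednisone libraries, against 2.09, 3.78, 2.78, 2.33 and 2.64 FPKM in control libraries, without overlap (-0.65, SE 0.10, limma adjusted p = 0.00318). The Ackr4 call held in all 27 alternatives (0.000847 to 0.0273), and without prednisone replicates 1 and 2 or control replicates 1 and 4. Cxcl12 averaged 30.4 ± 3.15 FPKM in prednisone lungs and 37.0 ± 2.09 in control lungs (-0.28, SE 0.07, limma adjusted p = 0.0398). The Cxcl12 call ended without prednisone replicates 1, 2 or 4 or control replicates 2 to 5 (0.0516 to 0.0838), with no filter (0.0793), with quantile normalization (0.0746), with only the groups compared (0.0795), without prednisone replicates 1 and 2 together (0.174) and without control replicates 1 and 4 (0.111). Endothelial markers summed to 557 to 723 FPKM in prednisone lungs, against 809 to 1000 in control lungs, and 4 of the 10 were called lower. Smooth muscle markers summed to 107 to 153 FPKM in prednisone lungs, against 155 to 227 in control lungs, with Acta2, Myh11 and Des called lower. Fibroblast markers summed to 1590 to 2060 FPKM in prednisone lungs, against 2140 to 2340 in control lungs, and 0 were called. The 7 tested fat markers were all lower at an unadjusted p under 0.05, and 0 were called. The part of these in the Ackr4 and Cxcl12 results was not tested. With these, 5 of 40 tested members were called, 3 higher and 2 lower, where 3.57% of all genes were called (1.78% higher, 1.79% lower), and 6 members did not overlap (5.58% of all genes). At an unadjusted p under 0.05, 12 were higher and 5 lower, where 20.7% of all genes passed (10.2% higher, 10.5% lower). The median was 0.075 beside -0.004 over all genes.

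The remaining tested members were called in no comparison. They include the monocyte receptor Ccr2, which averaged 6.90 ± 1.88 FPKM in SMD lungs, 6.15 ± 1.96 in prednisone lungs, 5.81 ± 1.80 in model lungs and 4.49 ± 1.05 in control lungs. Ccl5, a chemokine of T and natural killer cells, averaged 16.5 ± 2.58, 19.7 ± 5.37, 20.7 ± 3.85 and 19.2 ± 6.35 FPKM in SMD, prednisone, model and control lungs. Its groups overlapped in all 6 comparisons. Ackr3, which scavenges Cxcl12, averaged 7.10 ± 0.893 FPKM in SMD lungs, 5.95 ± 0.504 in prednisone lungs, 7.08 ± 0.688 in model lungs and 6.65 ± 0.903 in control lungs. Its difference between prednisone and model lungs was -0.21 (SE 0.09, adjusted p = 0.157). Cxcl17, a mucosal chemokine, averaged 29.0 ± 8.54, 30.8 ± 4.36, 32.8 ± 4.11 and 27.9 ± 3.35 FPKM in SMD, prednisone, model and control lungs. Ccl22, the second Ccr4 ligand, averaged 1.11 ± 0.207, 1.32 ± 0.324, 1.32 ± 0.406 and 0.825 ± 0.0682 FPKM in the same groups. Reads of the near-identical copies Ccl27a and Ccl27b may likewise be shared.

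Downstream of the receptors, a list of 47 tested genes for G proteins, kinases, Rac and integrin activation held few called genes. In model against control lungs 0 were called by limma, with 10 higher and 0 lower at an unadjusted p under 0.05. Over all genes 13% were higher and 2.81% lower at that threshold. In SMD against model lungs 0 were called, with 1 higher and 4 lower, where 3.14% of all genes were higher and 15.7% lower. In prednisone against model lungs 3 were called lower, the G protein subunit genes Gnb2 (-0.25) and Gnai2 (-0.22) and the small GTPase gene Cdc42 (-0.21), and 0 higher, where 7.13% of all genes were called lower. The list's median there was -0.03, beside -0.05 over all genes. In SMD against prednisone lungs Gnb2 was called higher (0.21) and Gnai3, another G protein subunit gene, lower (-0.16), where 2.16% of all genes were called higher and 2.42% lower. In prednisone against control lungs 4 were called higher, where 1.78% of all genes were: Pik3r5 (0.74), a regulatory subunit of phosphoinositide 3-kinase gamma, Rgs1 (0.92), which shortens chemokine receptor signalling, Prkcd (0.43) and Grk3 (0.41). In SMD against control lungs 0 were called, with 4 higher and 1 lower at an unadjusted p under 0.05. Over all genes 6.48% were higher and 8.06% lower there.

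Among 18 tested chemotactic genes outside the naming rule, Cd74, the invariant chain that also binds the cytokine Mif, rose in model lungs to 638 ± 128 FPKM, against 372 ± 37.7 FPKM in control lungs (0.76, SE 0.15, limma adjusted p = 0.0422). This call ended with median-of-ratios scaling, quantile normalization or only the groups compared, where 0 genes were called in model against control lungs. The same held without model replicates 1 or 2 or control replicates 2, 3, 4 or 5. It also held without SMD replicates 1, 2 or 4 or prednisone replicates 3 or 4. Cd74 was also called higher in prednisone lungs, at 628 ± 153 FPKM, against control lungs (0.73, adjusted p = 0.0101). SMD lungs held 518 ± 39.6 FPKM. Mif was called lower in prednisone lungs than in model lungs (-0.27, adjusted p = 0.0379), and the prostaglandin receptor gene Ptger2 higher in prednisone lungs than in control lungs (0.34, adjusted p = 0.0424). In the other 3 comparisons 0 of the 18 were called by limma, with 0 to 3 higher and 1 to 3 lower at an unadjusted p under 0.05.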

How the data were processed

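RNA from 20 whole lung libraries (4 groups of 5) was sequenced as paired ends on an Illumina NovaSeq after TRIzol extraction and NEBNext Ultra library preparation, per the labels' protocols. The authors deposited FPKM values per gene, and the tools listed in the submitters' processing notes are fastp, HISAT2, featureCounts and DESeq2 with build GRCm38; versions, strand setting and filters are not given there. Groups came from the treatment label. The label of prednisone replicate 5 reads group 1, and its replicate number was taken from the title.

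From the deposited FPKM, genes at 1 FPKM or more in at least 5 of 20 libraries (15106 genes, of which 40 of 58 members) were fitted as log2(FPKM + 1) in 1 model over all 20 libraries with limma 3.58.1 (R 4.3.3; lmFit, then eBayes with a mean trend). P-values were adjusted by Benjamini-Hochberg over all genes tested, and calls used a threshold of 0.05 on the adjusted p. The procedure was tested on simulated data. Single members were also compared by exact permutation over libraries, two-sided. Levels are mean ± SD over 5 libraries, intervals are 95%, and figures were drawn with matplotlib 3.10.9. Gene positions are from GENCODE vM21 (GRCm38), and symbols were available for 54409 of 54532 IDs. Cxcl11, annotated as a polymorphic pseudogene, was left out by the rule.

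Depth is unknown: FPKM of 21352 single-exon genes came within 0.05 of whole reads for at most 12.7% to 15.0% of values per library, where chance gives 10%. FPKM is relative to each library's total, so a few abundant genes can shift the rest.

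The members and gene lists were chosen with earlier results of these data known. Values are given for each member called, for the 5 members with the smallest p in each comparison and for the member with the highest mean in each role group. Cxcl14 in SMD against model lungs and Cx3cr1 in SMD against control lungs are given by log2 fold change only. Genes outside the family come from lists, at most 4 called genes a list. Cxcl1, Cxcl2, Cxcl3, Ccl3, Ccl8, Ccl22, Cxcl13, Cxcl9, Cxcl17 and Ackr3 were added where their values were seen to matter. Alternatives were a pseudocount of 0.1, no filter, a filter at 0.5 FPKM, median-of-ratios scaling, quantile normalization, only the groups compared, the replicate number as a block, and leaving out each library; prednisone replicates 1 and 2, and control replicates 1 and 4, were also left out as pairs, a choice made after seeing the data. Median-of-ratios scaling and quantile normalization were applied to FPKM, not to counts. Values of 1 tested member are not reported here, though counts over the family include it. A planned search of protein sequences was not run.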

Additional observations from a re-analysis of the deposited data

Results flagged for a closer look

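Among 160 combinations of a tested member and a group, 4 held a library far from the other 4 by Dixon's criterion, where chance gives about 1 in 20, that is 8. Ccl21b, a lymphoid chemokine with near-identical copies, was at 1.39 FPKM in SMD replicate 1 and at 0.185 to 0.23 FPKM in the other SMD libraries. Cxcl3 was at 4.58 FPKM in SMD replicate 3 and at 0.0736 to 0.86 FPKM in the other SMD libraries. Cxcl13 was at 20.5 FPKM in model replicate 3 and at 6.67 to 9.3 FPKM in the other model libraries. Ccl4 was at 1.97 FPKM in control replicate 2 and at 0.647 to 0.912 FPKM in the other control libraries. Ccl21b and Ccl4 are named because of these values.

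The effects of SMD and prednisone, each set against the model lungs, differed for 3 members in the test of SMD against prednisone: the SMD effect minus the prednisone effect was 0.576 (log2) for Cxcl15, 0.324 for Cxcl12 and 0.875 for Ackr4. For Ackr4 the effects were of opposite sign and each was called, at 0.51 for SMD and -0.37 for prednisone. For Cxcl15 they were of opposite sign and neither was called, at 0.28 for SMD and -0.30 for prednisone. For Cxcl12 they were -0.06 for SMD and -0.38 for prednisone.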

How the results depend on the processing

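The number of members called moved with the processing. In model against control lungs, 1 was called, and 0 with a pseudocount of 0.1, no filter, a filter at 0.5 FPKM, median-of-ratios scaling, quantile normalization, the replicate block or only the groups compared (limma, as throughout). In SMD against model lungs, 2 were called, and 1 with no filter, quantile normalization or only the groups compared. In prednisone against model lungs, 3 were called, and 1 with no filter, median-of-ratios scaling, quantile normalization or the replicate block. In SMD against prednisone lungs, 3 were called, and 5 with quantile normalization. In prednisone against control lungs, 5 were called, and 2 with no filter, the replicate block or only the groups compared. Leaving out each library in turn gave 0 to 2 members in model against control lungs, 0 to 3 in SMD against model, 1 to 4 in prednisone against model, 3 to 4 in SMD against prednisone, 1 to 3 in SMD against control and 1 to 7 in prednisone against control. The cause of these moves was not tested, except that a fit without a library, or of only the groups compared, has fewer samples. None of the 78 differences with an unadjusted p under 0.05 changed sign in any alternative. Of all 240 pairs of a tested member and a comparison, 76 did in at least 1, each with a log2 fold change of 0.336 or less in size. In alternatives chosen after seeing the data, leaving out prednisone replicates 1 and 2 gave 1, 2, 1, 2, 3 and 2 members called in the 6 comparisons, and leaving out control replicates 1 and 4 gave 0, 3, 3, 4, 0 and 1. Over all genes, model against control gave 29 calls, and 0 with median-of-ratios scaling, quantile normalization, the replicate block or only the groups compared.

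Replicate numbers did not pair the samples: deviations of same-numbered libraries correlated at -0.18 to 0.237 over 30 pairs (median -0.004), with 6 pairs over 0.1, and 2 of 20 libraries correlated best with their own number. With the replicate block the members called were 0, 3, 1, 4, 3 and 2 in the 6 comparisons, in the order above with SMD against control before prednisone against control. The block ended the calls of Ccl17 in model against control lungs (adjusted p = 0.0828), of Cxcl14 (0.0518) and Ackr4 (0.0574) in prednisone against model lungs and of Cxcl16 (0.065), Cxcl10 (0.0652) and Cxcl12 (0.0633) in prednisone against control lungs. Depth is unknown, so counting error of members near 1 FPKM cannot be given.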
